A study of Mus musculus with 10 samples.

Results

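The 10 genes described here are the 4 TCF/LEF transcription factors of the mouse (Lef1, Tcf7, Tcf7l1 and Tcf7l2) and 6 genes known as feedback targets of beta-catenin signalling (Axin2, Nkd1, Sp5, Lgr5, Notum and Tnfrsf19). They are a list of names set with earlier results of these data known, with no threshold on their values, and all 10 were found by symbol among the 56748 gene identifiers of the count files. Their RNA was counted in 10 libraries of embryonic mouse cortex at stage E12.5. The labels describe 5 libraries as Emx2 KO and 5 as WT, and the series design places the tissue in the dorsal telencephalon. Neither the allele, the strain, the sex nor whether each library came from a separate embryo is stated, so a p-value here sets a difference against the scatter of these 10 libraries, part of which may be technical. The comparison asks how transcripts of this pathway differ in cortex labelled as knockout of Emx2, a homeobox transcription factor of the dorsal telencephalon.

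In WNT signalling, secreted ligands bind Frizzled and LRP receptors and stop the breakdown of beta-catenin, which then enters the nucleus and binds TCF/LEF proteins on DNA. Without beta-catenin the same proteins recruit corepressors of the Groucho (Tle) family. Tcf7l1 is known mainly as a repressor and Lef1 mainly as an activator, whereas Tcf7 and Tcf7l2 do both. Several targets feed back on the pathway: Axin2 is a scaffold of the complex that marks beta-catenin for breakdown, Nkd1 binds Dishevelled, Notum is an enzyme that removes the lipid of WNT ligands, and Lgr5 is a receptor for R-spondins. In the embryonic cortex the main WNT source is the cortical hem at its medial edge, and Lef1 is needed for the hippocampus to form beside it.

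TCF/LEF proteins bind short DNA words. The classical word CTTTGAT was searched, together with its variants CTTTGAA, also CTTTGTT, and lastly CTTTGTA, making 4 words read on both strands, without regard to overlap with other motifs, in RefSeq promoter windows of build GRCm38.p6, each running from 250 bases before to 50 bases after a transcript start. The table held 14 windows for 8 members and no entry for Lgr5 and Notum. Of the 14 windows 4 held a match, in Sp5, Tnfrsf19, Lef1 and Tcf7l2, against 16.9% of all 32851 windows. Windows of the same gene can overlap, as the most upstream ones of Lef1 do, and are not separate units. By gene, 4 of the 8 members had a match, against 18.9% of all 27025 genes with a window. Sp5 had 2 matches in its only window, which 1.94% of all windows had or exceeded. The windows below are those of 3 targets that fell in the knockout and of the factor that rose (values follow), printed 5′ to 3′ on the gene's strand, with matches in capitals.
Sp5, chr2:70474673-70474972, plus strand: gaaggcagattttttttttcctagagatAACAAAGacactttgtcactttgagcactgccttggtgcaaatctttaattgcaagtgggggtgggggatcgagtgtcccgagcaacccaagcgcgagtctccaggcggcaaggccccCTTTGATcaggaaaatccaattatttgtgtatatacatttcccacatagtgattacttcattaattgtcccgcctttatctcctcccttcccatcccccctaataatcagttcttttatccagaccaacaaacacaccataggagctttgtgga
Tnfrsf19, downstream start, chr14:61037938-61038237, minus strand: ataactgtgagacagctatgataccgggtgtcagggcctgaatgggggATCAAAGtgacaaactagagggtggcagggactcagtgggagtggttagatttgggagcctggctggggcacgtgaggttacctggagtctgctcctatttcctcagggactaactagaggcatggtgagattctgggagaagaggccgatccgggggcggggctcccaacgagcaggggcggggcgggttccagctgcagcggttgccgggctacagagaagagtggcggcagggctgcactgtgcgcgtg
Axin2, chr11:108920099-108920398, plus strand: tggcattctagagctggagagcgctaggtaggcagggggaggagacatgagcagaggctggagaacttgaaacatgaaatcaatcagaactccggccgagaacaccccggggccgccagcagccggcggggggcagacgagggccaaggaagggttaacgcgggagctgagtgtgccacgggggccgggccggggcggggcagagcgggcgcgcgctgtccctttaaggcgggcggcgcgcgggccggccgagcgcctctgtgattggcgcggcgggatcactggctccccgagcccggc
Tcf7l1, chr6:72788996-72789295, minus strand: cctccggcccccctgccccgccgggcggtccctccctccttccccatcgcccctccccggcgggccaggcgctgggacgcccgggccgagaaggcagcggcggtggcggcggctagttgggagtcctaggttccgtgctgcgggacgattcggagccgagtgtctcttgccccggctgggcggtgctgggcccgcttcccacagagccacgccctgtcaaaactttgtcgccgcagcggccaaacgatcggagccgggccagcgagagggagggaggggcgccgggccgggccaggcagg
In Sp5 the match CTTTGAT began 104 bases before the start, and a reverse-strand CTTTGTT 222 bases before it. In Tnfrsf19 a reverse-strand CTTTGAT lay 202 bases before the downstream start, and the window of its upstream start held none. The printed windows of Axin2 and Tcf7l1 held none of the 4 words. Neither did the windows of Nkd1, another target that fell, and Tcf7, which are not printed. The matches in Lef1 (CTTTGTA) and Tcf7l2 (CTTTGTT) lay at their most downstream starts, inside the gene. A match is a run of letters and not a measured binding site, and gene-level counts do not show which start was used.

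Total counts ran from 9720840 to 35674113 per library. They fell into 5 large libraries (at least 24856930, KO 1, KO 2, KO 4, WT 3 and WT 4) and 5 small ones (at most 14700549). The sample titles close with 1 of 3 codes, not explained by the labels, and libraries that share a code but not a genotype were of different size class. Within a size class the genotypes therefore shared no code, and fits on large or small libraries alone cannot tell genotype from code. Emx2 itself was lower but not absent, with a mean ± SD of 123 ± 21.1 CPM over the 5 knockout and 186 ± 12.8 CPM over the 5 wild-type libraries (log2 fold change -0.59 ± 0.11 SE, edgeR adjusted p = 0.00271). The label knockout thus stands here for tissue with Emx2 reads at 66.3% of the wild-type level. Gene-level counts do not show whether those reads came from intact Emx2 transcripts. The cortical marker Emx1 (103 to 174 CPM), picked after its values were seen, was present in all 10 libraries. Summed over 13 hem genes, led by Wnt8b and Rspo3, the knockout libraries held 145 to 326 CPM and the wild-type libraries 426 to 630 CPM. Of the 12 hem genes tested 9 were lower and 0 higher in the knockout by edgeR, beside 9.33% of all genes lower and 12.9% higher. In the large libraries alone 3 of 12 were lower (6.93% of all genes), and in the small ones 8 of 12 (1.65%). With WT 1 and WT 5 left out 7 of 12 were lower (5.75%), and without KO 1 10 of 12 (9.61%). In hem and diencephalic genes WT 1 and WT 5 stood apart from the other wild-type libraries. Their hem sums were 630 and 628 CPM against 426 to 498 CPM, and each of the 16 listed genes of diencephalon and thalamus had its highest wild-type value in WT 1 or WT 5. Chi-square per gene over all genes did not set this pair apart. It was 10.3 between WT 1 and WT 5, and 9.14 between WT 3 and WT 5, the lowest wild-type value. The highest wild-type values, 17.1 to 20.4, were those of WT 3 against WT 1, WT 2 and WT 4. Among the knockout libraries KO 1 stood apart: its chi-square per gene against the other 4 was 17.2 to 23.7, against 9.06 to 14.4 among those 4.

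Among the targets, 5 of the 6 had enough reads to be tested, and all 5 were lower in the knockout. Among the TCF/LEF factors, Tcf7l1 was higher and the other 3 did not pass the test. Of the 9 members tested 5 were therefore lower and 1 higher (edgeR quasi-likelihood test, adjusted p under 0.05 over all genes), while of all 18163 tested genes 9.33% were lower and 12.9% higher, 22.2% in all. The median log2 fold change was -0.52 for the 5 targets and -0.01 for all genes tested. The libraries of the genotypes did not overlap for 4 members that were lower (Axin2, Sp5, Notum and Tnfrsf19), against 7.06% of all genes, and for 1 that was higher (Tcf7l1), against 9.63%. Both directions together, 16.7% of all genes had no overlap. RNA came from whole tissue, so fewer cells of a kind and less RNA per cell cannot be told apart in any of these values.

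**Figure D1:**
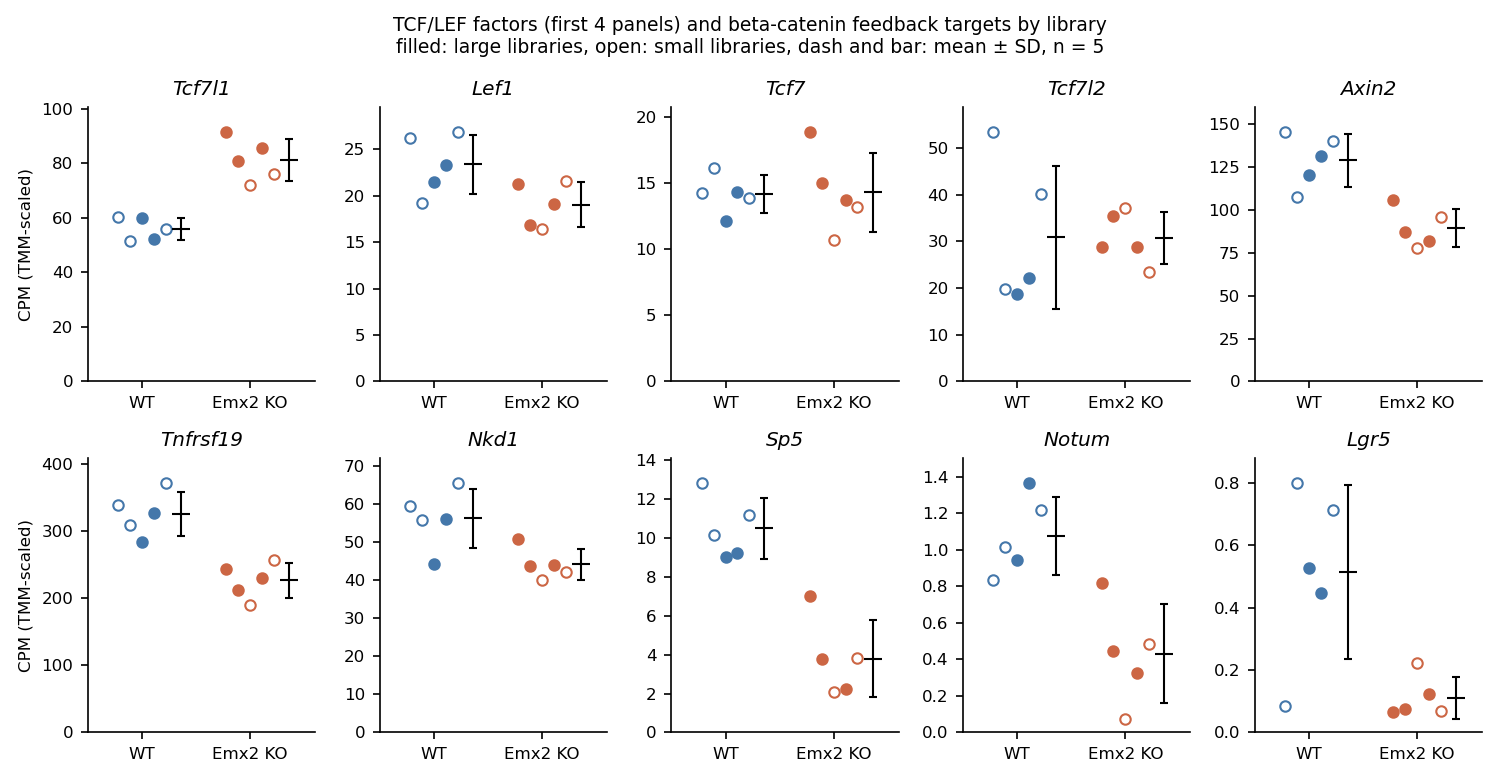
CPM on TMM-scaled totals (vertical axis, from 0, its own scale in each panel) of each member in the 5 WT and 5 Emx2 KO libraries (1 point each; filled for large and open for small libraries; dash and bar give the mean ± SD, n = 5). The points of Tcf7l1 lie higher in the knockout with no overlap, those of Axin2, Tnfrsf19, Sp5 and Notum lie lower with no overlap, and Tcf7l2 has 2 wild-type points (53.5 and 40.2 CPM) far above the other 3.

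Axin2 (ENSMUSG00000000142), the most widely used readout of beta-catenin signalling, stood at 106, 87.1, 77.7, 81.9 and 95.7 CPM in knockout libraries 1 to 5 and at 146, 108, 120, 131 and 140 CPM in wild-type libraries 1 to 5. Every knockout library was below every wild-type library, but narrowly, since KO 1 reached 106 and WT 2 was at 108 CPM. The mean fell from 129 ± 15.3 to 89.6 ± 11.3 CPM, so that 69.5% of the wild-type level remained (log2 fold change -0.52 ± 0.10 SE, edgeR adjusted p = 0.00301). With any 1 library left out the call held (edgeR adjusted p from 0.00133 to 0.0107). In the small libraries alone the change was -0.59 with adjusted p = 0.107, and with title code 241022 alone it was -0.39 with adjusted p = 0.316.

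Tnfrsf19 (ENSMUSG00000060548) encodes Troy, an orphan receptor of the TNF receptor superfamily, and was the most abundant member. It was counted at 243, 212, 190, 231 and 257 CPM in the knockout libraries and at 339, 309, 284, 327 and 372 CPM in wild type. The highest knockout library (KO 5) lay below the lowest wild-type library (WT 3). Its log2 fold change, -0.52 ± 0.09 SE, was of the size of that of Axin2 (edgeR adjusted p = 0.00137; 0.00110 to 0.00553 with 1 library left out). It did not pass in the small libraries alone (-0.61, adjusted p = 0.0815) or with title code 14922 alone (-0.46, adjusted p = 0.221).

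Sp5 (ENSMUSG00000075304), a zinc-finger transcription factor of the Sp family induced by WNT, had the deepest fall of the tested members. The knockout libraries held 6.99, 3.79, 2.08, 2.21 and 3.81 CPM and the wild-type libraries 12.8, 10.2, 9.03, 9.24 and 11.2 CPM. KO 1 stood above the other knockout libraries but below all of wild type. The mean went from 10.5 ± 1.56 to 3.78 ± 1.98 CPM, or 36% of wild type (log2 fold change -1.43 ± 0.29 SE, edgeR adjusted p = 0.00478). The change was -1.81 without KO 1, its largest value with 1 library left out. It was -1.94 in the small and -1.06 in the large libraries, where it did not pass (adjusted p = 0.189), and with title code 241022 alone it was -1.08 (adjusted p = 0.146).

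Nkd1 (ENSMUSG00000031661), the Dishevelled-binding antagonist, fell least of the 5. Its levels were 50.7, 43.8, 40.0, 44.0 and 42.0 CPM in the knockout and 59.5, 55.9, 44.1, 56.1 and 65.5 CPM in wild type. The groups overlapped, because WT 3 lay within the knockout range. The log2 fold change was -0.34 ± 0.10 SE (edgeR adjusted p = 0.0241), and the call was lost without any one of KO 2 (adjusted p = 0.0520), KO 3 (0.0572), KO 5 (0.0522), WT 1 (0.0608) and WT 5 (0.0598). In the large libraries alone the change was -0.12 (adjusted p = 0.548). With all 10 libraries the call was also lost by limma-voom (-0.28, limma-voom adjusted p = 0.0597). In edgeR it was lost with Y-linked expression as a covariate (-0.29, edgeR adjusted p = 0.0654).

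Notum (ENSMUSG00000042988), the secreted WNT deacylase, was close to the limit of detection. It had 25, 12, 1, 8 and 7 reads in the knockout libraries and 10, 14, 34, 46 and 12 in wild type, which correspond to 0.820, 0.446, 0.0742, 0.327 and 0.485 CPM against 0.833, 1.02, 0.942, 1.37 and 1.22 CPM. KO 1 and WT 1 were nearly level. The mean was 0.431 ± 0.271 against 1.08 ± 0.215 CPM (log2 fold change -1.23 ± 0.38 SE, edgeR adjusted p = 0.0333). Leaving out KO 2 (adjusted p = 0.0707), KO 4 (0.0799), KO 5 (0.0533), WT 2 (0.0519), WT 4 (0.0940) or WT 5 (0.0659) ended the call, and the change without KO 3, the library with 1 read, was -1.03.

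Lgr5 (ENSMUSG00000020140), the R-spondin receptor known as a stem cell marker in gut, did not reach the minimum number of reads and was not among the genes tested. It had 2, 2, 3, 3 and 1 reads in the knockout libraries and 1, 11, 19, 15 and 7 in wild type. Pooled over libraries these are 0.100 CPM (95% exact Poisson interval 0.050 to 0.179, counting error only) and 0.503 CPM (0.377 to 0.658). The wild-type libraries were higher except WT 1, which had a single read and lay within the knockout range. In a fit with no filter on low counts Lgr5 was lower (log2 fold change -2.24 ± 0.55 SE, edgeR adjusted p = 0.00758), beside 3.92% of 36757 genes that were lower in that fit.

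**Figure D2:**
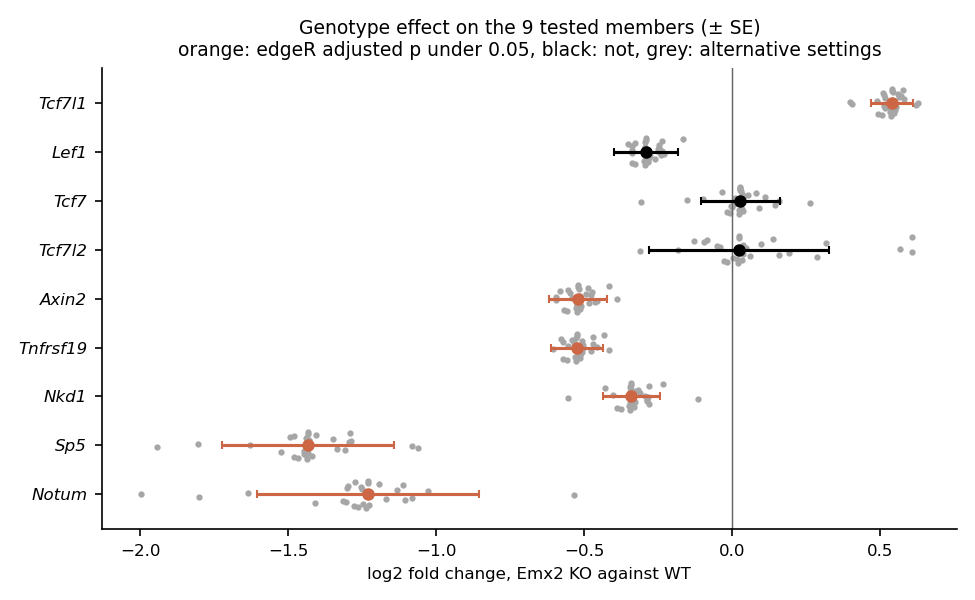
Log2 fold change of Emx2 KO against WT (horizontal axis) for the 9 tested members, with SE bars; orange marks edgeR adjusted p under 0.05, black those that did not pass, and grey dots the same value under the alternative settings. The dots of Axin2, Tnfrsf19, Nkd1, Sp5 and Notum all lie below 0 and those of Tcf7l1 all above it (0.40 to 0.63), whereas those of Tcf7 and Tcf7l2 lie on both sides.

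Tcf7l1 (ENSMUSG00000055799), the factor known mainly as a repressor, was the member that rose. It was counted at 91.4, 80.7, 71.9, 85.6 and 75.9 CPM in the knockout and at 60.1, 51.5, 59.7, 52.0 and 55.7 CPM in wild type. The lowest knockout library was clear of the highest wild-type library, and the spread within each genotype was small. The mean rose from 55.8 ± 4.09 to 81.1 ± 7.72 CPM, a 1.45-fold difference (log2 fold change 0.54 ± 0.07 SE, edgeR adjusted p = 0.000207). It passed in the 28 alternatives tried as well, the adjusted p reaching 0.0494 at most.

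Lef1 (ENSMUSG00000027985), itself a target of WNT signalling in several tissues, was at 21.2, 16.9, 16.4, 19.1 and 21.6 CPM in the knockout and 26.2, 19.2, 21.5, 23.3 and 26.9 CPM in wild type. The lower values were mostly those of the knockout, but WT 2 and WT 3 lay within its range. The log2 fold change of -0.29 ± 0.11 SE did not pass (edgeR adjusted p = 0.0725). It passed without WT 2 (-0.35, adjusted p = 0.0331), with upper-quartile scaling (adjusted p = 0.04998, just under the threshold) and with total counts alone (0.0404), so Lef1 sat at the edge of the call.

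Tcf7 (ENSMUSG00000000782) was at 18.9, 15.02, 10.7, 13.7 and 13.2 CPM in the knockout and 14.2, 16.2, 12.2, 14.4 and 13.9 CPM in wild type. The highest and the lowest library were both knockout, KO 1 and KO 3, and the wild-type values lay between them. The log2 fold change was 0.03 ± 0.13 SE (edgeR adjusted p = 0.922).

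Tcf7l2 (ENSMUSG00000024985), a factor strongly expressed in the embryonic thalamus, had the same mean in both genotypes and very different spreads. The knockout libraries held 28.8, 35.5, 37.3, 28.9 and 23.5 CPM, and the wild-type libraries 53.5, 19.8, 18.8, 22.1 and 40.2 CPM. All 5 knockout libraries lay above WT 2, WT 3 and WT 4, and below WT 5 and WT 1. The means were 30.8 ± 5.58 and 30.9 ± 15.4 CPM (log2 fold change 0.02 ± 0.30 SE, edgeR adjusted p = 0.975). WT 1 and WT 5 were also the wild-type libraries with the highest sums over the diencephalic list (798 and 683 CPM, against 550 to 590 CPM in the other 3). Its leading genes Zic1 and Otx1 are also expressed in telencephalon. Olig3, a marker of the thalamic ventricular zone from the same list, named after its values were seen, was at 20.6 CPM in WT 1 and 8.03 CPM in WT 5 but at 0.286 to 1.04 CPM in the other 8 libraries. The part of such tissue in the Tcf7l2 values was not tested. With WT 1 and WT 5 left out, Tcf7l2 was higher in the knockout (0.61, edgeR adjusted p = 0.0173), as it was in the large libraries alone (0.61, adjusted p = 0.00883), where 9.51% of all genes were higher. Both settings drop the 2 wild-type libraries with the most Tcf7l2, and so give no support independent of that choice. Tcf7l2 lies on chromosome 19 like Emx2, 3.52 Mb from it by the GENCODE annotation of GRCm38.

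Levels of different genes were compared as CPM per kilobase of annotated exon. In wild type the order ran from Tnfrsf19 (68.9 ± 6.99) and Axin2 (23.4 ± 2.79) through Tcf7l1 (14.2 ± 1.04) and Nkd1 (12.3 ± 1.71) to Tcf7 (5.40 ± 0.548), Sp5 (4.995 ± 0.744), Tcf7l2 (3.52 ± 1.75) and Lef1 (2.66 ± 0.362), with Notum (0.447 ± 0.0895) and Lgr5 (0.050 ± 0.0272) last. Neighbours in this order whose levels lay within their spread were Tcf7l1 and Nkd1, Tcf7 and Sp5, Sp5 and Tcf7l2, and Tcf7l2 and Lef1. In the knockout Tcf7l1 (20.7 ± 1.97) stood above Axin2 (16.3 ± 2.05), and Sp5 (1.80 ± 0.942) was at about the level of Lef1 (2.17 ± 0.272).

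Within the family, Tcf7l1 was the largest part of the TCF/LEF transcripts in every library. Per kilobase it made up 55.4% ± 4.28 of the summed level of the 4 factors in wild type and 65.0% ± 1.33 in the knockout (SD, n = 5 each). Its share ran from 63.8% to 67.1% in the knockout and from 51.4% to 62.3% in wild type, so the groups did not overlap. As a share of counts with no length correction they did overlap, since KO 3 (52.8%) lay below WT 3 (53.3%). The share of Lef1 was 6.84% ± 0.886 against 10.3% ± 0.846, again without overlap (at most 8.33% in any knockout and at least 9.22% in any wild-type library). Tcf7 made up 17.0% ± 2.07 against 21.1% ± 3.26, and Tcf7l2 11.1% ± 2.53 against 13.2% ± 5.16, both with overlap. The ratio of Tcf7l1 to Lef1 per kilobase was 9.64, 10.7, 9.82, 10.1 and 7.87 in the knockout and 5.15, 5.99, 6.23, 5.01 and 4.65 in wild type. The 4 shares of a library make up a whole, so a rise of any factor lowers the shares of the others. The summed level of the 4 factors was 31.8 ± 3.00 CPM per kilobase in the knockout and 25.8 ± 2.63 in wild type. A smaller share of Lef1 or Tcf7 is therefore not by itself a lower level. These shares are descriptions and carry no test.

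**Figure D3:**
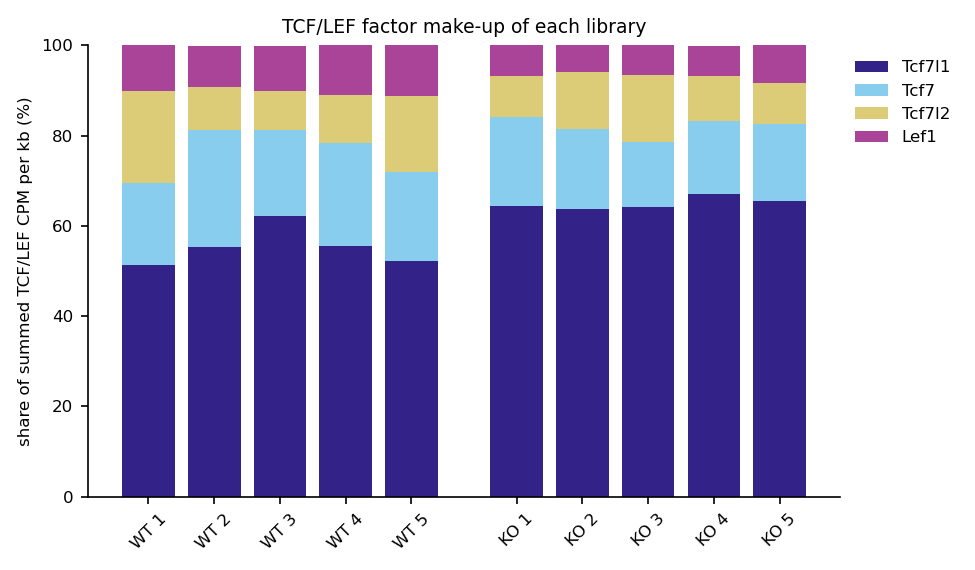
Share (%) of each TCF/LEF factor in the summed CPM per kilobase of the 4 factors, 1 bar per library. The Tcf7l1 part is 51.4% to 62.3% in the WT bars and 63.8% to 67.1% in the KO bars, the Lef1 part is smaller in every KO bar, and WT 1 and WT 5 have the largest Tcf7l2 parts (20.4% and 16.9%).

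Several members had their high and low values in the same libraries as the hem markers. No member belongs to the 13 hem genes. From low to high, the knockout libraries came in the order KO 3, KO 4, KO 2, KO 5, KO 1 by the hem sum, and Axin2, Sp5 and Notum gave that same order. For Sp5 it rests on near ties, KO 3 and KO 4 at 2.08 and 2.21 CPM and KO 2 and KO 5 at 3.79 and 3.81 CPM. For Notum it rests on 1, 8, 12, 7 and 25 reads. KO 3 was the lowest knockout library for 8 of the 10 members, Tcf7l1 included, and KO 1 the highest for 6. The same extremes, KO 1 high and KO 3 low, held for the sums of endothelial genes (405 and 241 CPM), meningeal genes (914 and 655 CPM) and blood genes (7449 and 2362 CPM), so the hem list shares these extremes with other tissue lists. In wild type, 6 members (Lef1, Tcf7l2, Axin2, Nkd1, Sp5 and Tnfrsf19) had WT 1 and WT 5 as their highest libraries, the same as the hem sum. Notum and Lgr5 instead had their lowest wild-type value in WT 1. The full wild-type order of the hem sum was given by only 1 of the 10 members, Tcf7l2, and not by Axin2, Sp5 or Notum. The hem sum in the knockout was 39.6% of wild type. Mean CPM was 69.5% of wild type for Axin2, 69.5% for Tnfrsf19, 78.5% for Nkd1, 36% for Sp5, 40.03% for Notum and 21.6% for Lgr5. The part of the hem, or of the other tissues whose sums move with KO 1 and KO 3, in the lower targets was not tested. Without KO 1 the 5 targets were lower and Tcf7l1 higher: Axin2 (-0.59, edgeR adjusted p = 0.00136), Tnfrsf19 (-0.55, 0.00275), Sp5 (-1.81, 0.000160), Nkd1 (-0.40, 0.0114), Notum (-1.64, 0.00865) and Tcf7l1 (0.49, 0.000497). Of all genes tested without KO 1, 9.61% were lower and 12.6% higher. Without WT 1 and WT 5, Axin2 (-0.42, edgeR adjusted p = 0.0266), Tnfrsf19 (-0.43, 0.0126) and Sp5 (-1.29, 0.0376) remained lower and Tcf7l1 higher (0.58, 0.00180). Nkd1 (-0.23, 0.154) and Notum (-1.27, 0.0847) no longer passed. In that fit 5.75% of all genes were lower and 8.87% higher.

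**Figure D4:**
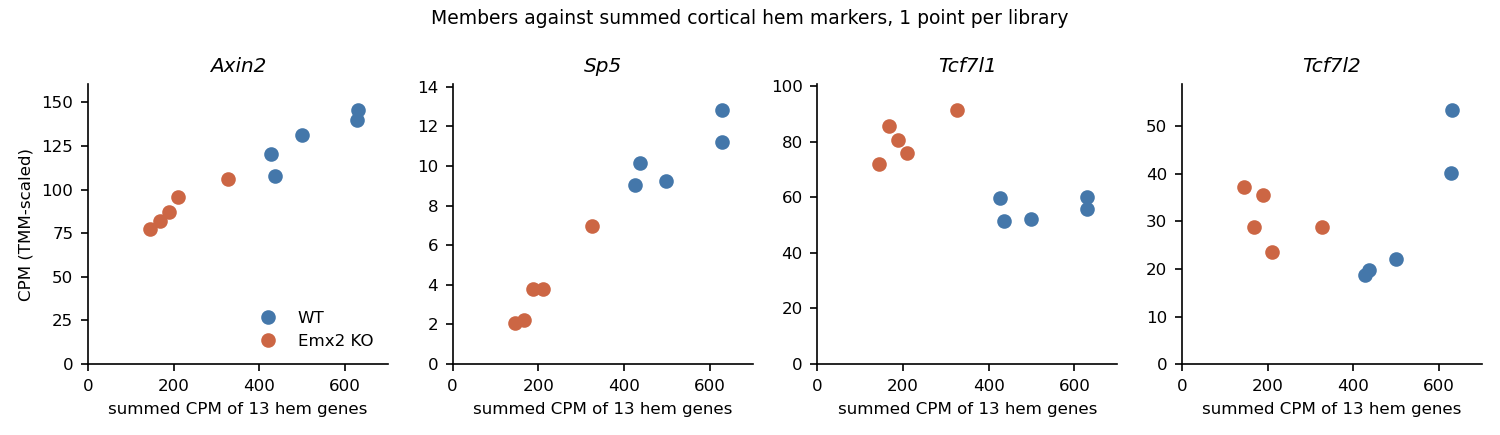
CPM of 4 members (vertical axes, from 0) against the summed CPM of 13 cortical hem genes (horizontal axis), 1 point per library, WT in blue and Emx2 KO in orange. Axin2 and Sp5 are higher where the hem sum is higher within the knockout, Tcf7l1 is higher in every knockout library although the hem sum is lower there, with KO 1 (91.4 CPM) its highest and KO 3 (71.9 CPM) its lowest knockout point, and Tcf7l2 is high in the 2 wild-type libraries with the largest hem sums (628 and 630 CPM).

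Markers of other tissue gave these values. Choroid plexus genes, led by Otx2 and Ttr, summed to 77.6 to 114 CPM in knockout and 322 to 380 CPM in wild type, with 10 of 12 lower. Endothelial genes, which matter here because Lef1, Axin2 and Tnfrsf19 are also expressed in brain vessels, summed to 241 to 405 against 293 to 383 CPM, and 0 of 12 passed (edgeR). Sums overlapped for meninges and mesenchyme (655 to 914 against 663 to 924 CPM, 3 of 12 lower), surface epithelium (3.81 to 9.41 against 8.31 to 12.8 CPM, 1 of 5 lower), microglia (46.4 to 65.0 against 53.5 to 70.3 CPM, 0 of 9), blood (2362 to 7449 against 2270 to 5512 CPM, 0 of 8) and diencephalon (628 to 844 against 550 to 798 CPM, 3 of 11 higher). Subpallial genes summed to 207 to 731 against 105 to 315 CPM (6 of 11 higher), also with overlap, since KO 5 (207 CPM) lay below WT 2 (315 CPM). Cortical progenitor genes summed to 4655 to 5066 against 3962 to 4186 CPM, without overlap (9 of 12 higher). Some of these counts rest on single libraries. Without KO 1, 5 of 12 endothelial, 5 of 12 meningeal, 2 of 9 microglial and 2 of 5 epithelial genes were lower, and 1 of 11 diencephalic genes was higher. With WT 1 and WT 5 left out, 0 of 12 subpallial genes were higher, 2 of 12 meningeal and 0 of 5 epithelial genes were lower, and 1 of 12 diencephalic genes was lower and 3 higher. In the small libraries 0 of 12 subpallial and 2 of 12 progenitor genes were higher.

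Upstream of the factors, 15 of 23 listed WNT ligands and R-spondins were tested, and 9 fell and 2 rose, with a median log2 fold change of -1.11. Without KO 1, 11 fell and 1 rose, with a median of -1.63 (9.61% of all genes lower, 12.6% higher). In the small libraries alone 7 of 16 fell and 0 rose, with a median of -1.72 (1.65% and 1.9%). The fall was weaker in the large libraries alone, where 5 of 17 fell and 2 rose, with a median of -0.736 (6.93% and 9.51%). With WT 1 and WT 5 left out 7 of 17 fell and 2 rose, with a median of -0.833 (5.75% and 8.87%). Of the list, 7 genes are also hem markers, among them Wnt2b (29.7 ± 2.28 to 5.97 ± 0.815 CPM, -2.31 ± 0.10 SE), Wnt3a (-1.79 ± 0.22) and Wnt5a (-1.62 ± 0.13). Wnt7b, which is expressed in the cortex outside the hem, fell from 153 ± 14.99 to 76.5 ± 11.8 CPM (-0.99 ± 0.11, edgeR adjusted p = 0.000100). Wnt1 rose from a very low level, 1 to 4 reads per wild-type library against 11 to 39 reads per knockout library.

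Among genes acting between receptor and nucleus, more rose than fell. Of 24 genes of the destruction complex and the receptor-proximal signalosome 11 rose, 1 fell and 12 did not pass, with a median log2 fold change of 0.11. The Dishevelled genes Dvl3 (183 ± 8.42 to 229 ± 2.77 CPM, 0.32 ± 0.04 SE, edgeR adjusted p = 8.88e-05) and Dvl2 (0.29 ± 0.04) rose, as did the casein kinase gene Csnk1d (0.31 ± 0.04) and the GSK3-binding proteins Frat1 (0.71 ± 0.11) and Frat2 (0.48 ± 0.07). The list holds inhibitors and activators of the pathway alike. Ctnnb1, which encodes beta-catenin and was looked up after the results were seen, stood at 1298 ± 23.0 against 1232 ± 19.0 CPM and did not pass (0.07, adjusted p = 0.152). In the small libraries alone, where 1.65% of all genes were lower and 1.9% higher, 1 of the 24 rose and 0 fell.

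Of 25 nuclear cofactors and corepressors 11 rose and 2 fell, with a median of 0.17. The Groucho corepressor Tle3 rose from 164 ± 7.81 to 231 ± 7.59 CPM (0.50 ± 0.04 SE, edgeR adjusted p = 9.64e-06), and Tle1 by 0.34 ± 0.05. The corepressor Ctbp1 (0.34 ± 0.05), the beta-catenin inhibitor Ctnnbip1 (0.41 ± 0.05) and the beta-catenin coactivator Bcl9 (0.32 ± 0.04) rose too. With total counts alone 9 rose and 3 fell in this list, and 9 and 2 in the destruction complex list, against 9.83% of all genes higher and 13.6% lower. In the small libraries alone 5 of the 25 cofactors rose and 0 fell.

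Other genes listed as WNT targets or feedback genes did not move one way. Emx2 is on this list and is left out of the count, since it is the gene named in the knockout label. Of the other 27 tested, 10 fell and 8 rose. With WT 1 and WT 5 left out, 7 of 29 on the full list, Emx2 included, fell and 8 rose. Wif1, a secreted WNT inhibitor (6.76 ± 1.36 to 1.35 ± 0.962 CPM, -2.39 ± 0.39 SE, edgeR adjusted p = 0.00140), and the homeobox gene Prox1 (-0.98 ± 0.15) fell. The ubiquitin ligases Rnf43 (-1.19) and Znrf3 (-0.41), which remove Frizzled receptors, the membrane WNT inhibitor Apcdd1 (-1.14), and Nkd2 (-0.44), all named after their values were seen, fell too. The proneural gene Neurog1 (27.9 ± 3.40 to 55.0 ± 5.22 CPM, 0.98 ± 0.09), the Notch ligand gene Jag1 (0.53 ± 0.07) and Zcchc14 (0.37 ± 0.04) rose. The cell-cycle gene Ccnd1, also named after its value was seen, rose from 194 ± 30.3 to 347 ± 64.6 CPM.

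**Figure D5:**
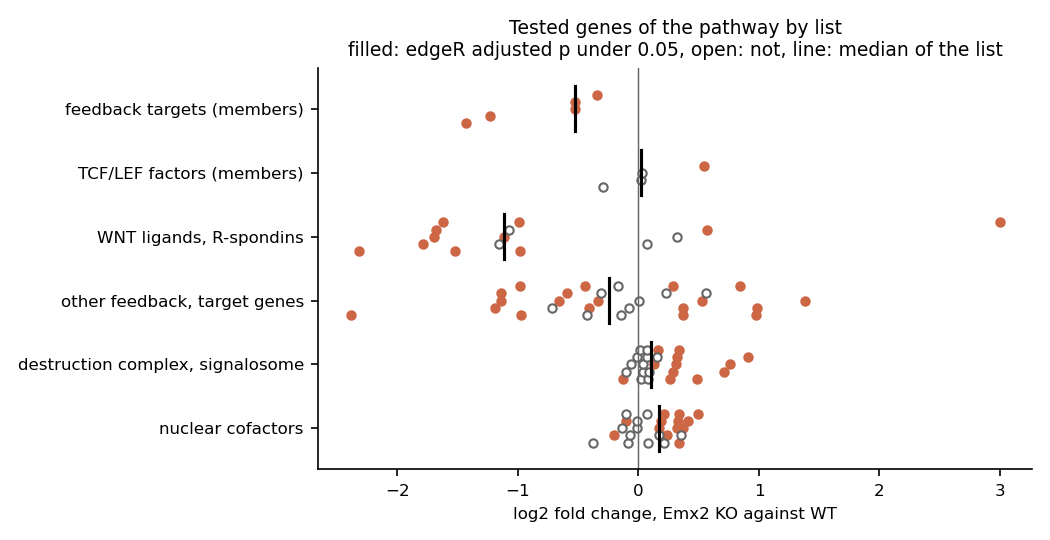
Log2 fold change of Emx2 KO against WT (horizontal axis) for each tested gene of the 6 lists of the pathway (rows); filled points passed edgeR adjusted p under 0.05, open points did not, and the line is the median of the list. The ligands have the lowest median (-1.11), the feedback targets follow (-0.52), and the medians of the destruction complex (0.11) and nuclear cofactors (0.17) lie above 0.

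The genotype effect on the members was also compared between the title codes 241022 and 14922, in the 8 libraries that hold 2 of each genotype per code. By edgeR's test of the interaction 0 of the 9 tested members differed, also at an unadjusted p under 0.05, and 1.53% of all genes tested differed. No other tool was run on it. The largest difference in log2 fold change was that of Notum (1.47 ± 0.86 SE, 241022 minus 14922). The same libraries differ in size class, so code and library size cannot be told apart within this test. Over all 10 libraries, the interaction of genotype with size class passed for 0 of the 9 members (edgeR), beside 0.0385% of all genes, and 2 members, Nkd1 and Tcf7, had an unadjusted p under 0.05. The small knockout and the large wild-type libraries are those of code 14922. This interaction therefore cannot be told apart from a difference between that code and the others.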

How the data were processed

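RNA-seq libraries of mouse cortex (5 Emx2 KO, 5 WT) were analysed from the deposited raw counts per Ensembl gene, 1 file per library. The submitters' processing notes name featureCounts (1.6.3-p1), STAR (version 2.7.8a) and bcl2fastq (2.20), without saying how each was run. Those notes list the rat build rn6 beside GRCm39. Parameters, strand setting and annotation release are not given in the sources used here, so reads of overlapping genes cannot be told apart. Groups came from the genotype label, and library numbers follow the order of the records and match nothing across groups. Libraries of a genotype were compared in pairs; the chi-square per gene was 9.06 to 23.7, beyond sampling noise, and none was merged.

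TMM scaling followed a filter on low counts (filterByExpr, minimum 10) that kept 18163 genes. Genotype, the only term, was tested in R 4.3.3 with the robust quasi-likelihood F test of edgeR 4.0.16, two-sided, Benjamini-Hochberg adjusted over all genes, threshold 0.05. CPM, counts scaled to library size, were computed on TMM-scaled totals and are mean ± SD, n = 5; standard errors came from the F statistic. Exon lengths, which join all isoforms of a gene, are GENCODE's for GRCm38. Promoter sequences are RefSeq's (GRCm38.p6).

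The members and lists were chosen with earlier results of these data known. Named were all members, Emx2, the 5 called genes of each pathway list with the lowest p, and the 2 most abundant of each marker list given by name; other names are marked as chosen later. The procedure was tested on simulated counts with no difference by title code or tissue, so that test does not cover such differences. Alternatives were other scalings, filters, DESeq2 1.42.0, limma 3.58.1 (voom), title code or size class as a block, a Y-linked covariate, subsets of libraries and each library left out. Fits without robust dispersion and without WT 1 and WT 5 were added after seeing the data.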

Additional observations from a re-analysis of the deposited data

How the results depend on the processing

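Over 28 alternatives, 203 of 258 member values kept direction and side of the threshold, 34 lost the call, 5 gained it and 16 changed sign. The sign changes were all of Tcf7 and Tcf7l2, which did not pass. Tcf7 went to -0.0067 (upper-quartile scaling), -0.018 (total counts), -0.0037 (size class as a block), -0.31 (small libraries), -0.15 (code 14922), -0.10 (without KO 1) and -0.03 (without WT 3), ranging from -0.10 to 0.11 with 1 library left out. Tcf7l2 went to -0.016 (upper-quartile), -0.027 (total counts), -0.31 (small libraries), -0.18 (code 241022), -0.04 (without KO 2), -0.05 (without KO 3), -0.10 (without WT 2), -0.13 (without WT 3) and -0.09 (without WT 4), ranging from -0.13 to 0.32 (without WT 1).

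The 5 members lower became 3 with the Y-linked covariate (8.11% of all genes lower), 3 with the 2 codes of 8 libraries as a block (6.2%), 3 in large libraries (6.93%), 2 in small ones (1.65%), 1 with code 241022 (1.54%), 2 with code 14922 (3.68%) and 3 at adjusted p under 0.01 (4.58%). With 1 library left out 3 to 5 members were lower, beside 7.38% to 9.61% of all genes. The 1 higher became 2 in large libraries (9.51% of all genes higher) and 2 without WT 1 and WT 5 (8.87%), in each case by Tcf7l2. Of all genes, 626 passed in small libraries, 530 with code 241022, 1710 with code 14922 and 2181 at 0.01, against 4039. In subsets fewer libraries were tested; the cause of other changes was not tested. As a share of counts rather than per kilobase, Lef1 was lower by 5.78 percentage points in place of 3.47 (knockout minus wild type -5.78 and -3.47). Scaling moved the median of all genes by less than 0.1. Depth limits Lgr5 and Notum. No paired analysis was possible because the library numbers match nothing across genotypes.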

Other observations

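The genotype effect was also set side by side by library size. Within a size class the genotypes shared no title code, so these values and their interaction cannot be assigned to library size. In the large libraries the log2 fold change of Nkd1 was -0.12 and in the small ones -0.55, and that of Tcf7 was 0.26 and -0.31. By edgeR's interaction of genotype with size class over all 10 libraries, the unadjusted p was 0.0193 for Nkd1 and 0.0291 for Tcf7 (edgeR adjusted p = 0.441 and 0.475), so neither difference passed. Tcf7l1 differed by 0.21 ± 0.12 SE and Axin2 by 0.14 ± 0.22 SE between the size classes.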
